A study of Mus musculus with 6 samples.

Results

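The miR-15/16 miRNAs with miR-195 and miR-497, and the related miR-103 and miR-107, form a superfamily with related seeds, and their levels were measured by small RNA sequencing in mouse brain cortex. The members are the 7 rows of the deposited count table named mmu-miR-15a-5p, mmu-miR-15b-5p, mmu-miR-16-5p, mmu-miR-195a-5p, mmu-miR-497a-5p, mmu-miR-103-3p and mmu-miR-107-3p, out of 1182 features. They were chosen by name, and all 7 were found. The cortices came from adult male mice with no treatment, 3 libraries labelled fmr1 KO (here KO) and 3 labelled fmr1 WT (here WT). Genotypes were matched for age and were siblings per the labels, which give neither the knockout allele nor the strain. Fmr1 encodes FMRP, an RNA-binding protein of neurons whose loss in humans causes fragile X syndrome. The comparison asks which miRNAs differ in level in cortex that lacks it. Fmr1 mRNA is not among the counted features, so it gave no check of the genotype labels.

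A mature miRNA guides Argonaute to messenger RNAs, mainly through its seed, the bases from the second to the eighth. The miR-15/16 branch is known for restraining the cell cycle through cyclins and for lowering the survival protein BCL2, and human miR-15a and miR-16-1 are lost in many chronic lymphocytic leukaemias. In heart muscle miR-195 acts on the withdrawal of cells from the cycle, and miR-16 is abundant in red blood cells. The miR-103 and miR-107 pair targets Dicer, and in liver and fat it affects insulin signalling. In brain, miR-107 is known to act on the transcript of the protease BACE1. Their hairpins are hosted by genes of pantothenate kinases, the enzymes that start the synthesis of coenzyme A.

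The mature sequences show how the members are related, and are given from RefSeq (GRCm38.p6) with the seed in capitals. The first 5 share a seed, and the last 2 share another that is offset by 1 base.

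miR-15a-5p: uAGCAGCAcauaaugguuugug
miR-15b-5p: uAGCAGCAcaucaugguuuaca
miR-16-5p: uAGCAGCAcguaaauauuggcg
miR-195a-5p: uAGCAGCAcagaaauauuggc
miR-497a-5p: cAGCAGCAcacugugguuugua
miR-103-3p: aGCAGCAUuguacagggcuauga
miR-107-3p: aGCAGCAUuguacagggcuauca

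Counted from base 1 at the 5′ end, miR-103-3p and miR-107-3p differ at 1 of 23 bases (G22C, the base of miR-103-3p first). Between miR-16-5p and miR-195a-5p, 2 of the 21 shared positions differ (G10A and U11G, the base of miR-16-5p first). The miR-15a-5p and miR-15b-5p sequences differ at 4 of 22 positions. With the miR-103/miR-107 sequences set 1 base downstream, the first 7 bases of miR-103-3p match bases 2 to 8 of each of the other branch's members. How reads that match several places were assigned is not given in the sources used here. Elsewhere in the table, miR-467a-5p and miR-467b-5p had the same mean level and SD in each genotype, so a read may be counted at more than one feature. Some reads of such close relatives among the members may therefore be shared, above all between miR-103-3p and miR-107-3p. Full sharing of the miR-467 kind was not seen for that pair, which had 89532 reads (miR-103-3p) and 3318 reads (miR-107-3p) over all 6 libraries.

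The 7 products come from 9 hairpins at 6 loci on GRCm38, the assembly of mm10. Mir15a (chr14:61632027-61632110) and Mir16-1 (chr14:61631880-61631972) lie 54 bases apart on the minus strand within Dleu2, a noncoding gene. The Mir15a hairpin is intronic, and Mir16-1 overlaps an exon of an annotated Dleu2 transcript. Mir15b (chr3:69009772-69009835) and Mir16-2 (chr3:69009902-69009996) lie 66 bases apart in an intron of Smc4, which encodes a condensin subunit. Mir497 (chr11:70234717-70234800) and Mir195a (chr11:70235042-70235135) lie 241 bases apart on the plus strand, within no annotated host gene other than miRNA genes. Mir103-1 (chr11:35782396-35782481) lies in an intron of Pank3, Mir103-2 (chr2:131288052-131288137) in an intron of Pank2, and Mir107 (chr19:34820687-34820773) in an intron of Pank1. Each hairpin with a host gene lies on the strand of that gene. Since both copies of miR-16 and both copies of miR-103 give the same mature sequence, the 5p counts of miR-16 and the 3p counts of miR-103 cannot be divided between loci.

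Counts summed over all features came to 11182888 to 14385332 in KO libraries and 13225790 to 15733876 in WT libraries. These sums may hold a read more than once. For example, miR-9-5p and miR-9b-3p had nearly equal means, 242778 and 242069 CPM in KO libraries, against 216250 and 215632 CPM in WT libraries. Brain-enriched miRNAs were present in every library, with the 5 neuronal markers (miR-124-3p, miR-128-3p, miR-9-5p, miR-138-5p and miR-129-5p) summing to 297606 to 437399 CPM in KO libraries, against 325406 to 356975 CPM in WT libraries. CPM are counts scaled to a common library size, after TMM correction between libraries. Most of the neuronal sum was miR-9-5p, at 183266 to 316153 CPM in KO libraries, against 208016 to 226567 CPM in WT libraries. The other neuronal markers were split in KO replicate 3. There miR-124-3p (2118 CPM) and miR-138-5p (360.6 CPM) were at their highest, and miR-128-3p (90409.7 CPM) and miR-129-5p (13107.1 CPM) at their lowest. The KO libraries stood further apart than the WT libraries. KO replicate 3 was the highest or the lowest of the 6 libraries for 367 of 541 tested miRNAs (67.8%), KO replicate 1 for 234 (43.3%), KO replicate 2 for 168 and the WT libraries for 82 to 118 each. Among the 7 members, KO replicate 3 and KO replicate 1 were each the highest or the lowest library for 5. Values with one of these libraries left out are given beside the results they move.

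No member passed the test between genotypes. At an adjusted p of 0.05 the edgeR quasi-likelihood test called 0 of 541 miRNAs (0%), 0 members among them. Without adjustment, 35 miRNAs (6.47%) and 0 members had a p under 0.05. Over the members, 3 log2 fold changes (KO over WT) were above 0 and 4 below it, with a median of -0.0083. Over all tested miRNAs the median was 0.03, and 47.5% were below 0. The calls also numbered 0 with DESeq2, where 40 of 1182 features had an unadjusted p under 0.05, and with limma-voom, where 34 of 541 did. Without KO replicate 3 edgeR called 18 of 560 miRNAs, with 0 members among them and a lowest adjusted p of 0.246 among members. The p-values measure the spread between these libraries, which the labels call biological replicates without tying each to an animal. In whole cortex, fewer cells of a type and less of an RNA per cell cannot be told apart.

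**Figure D1:**
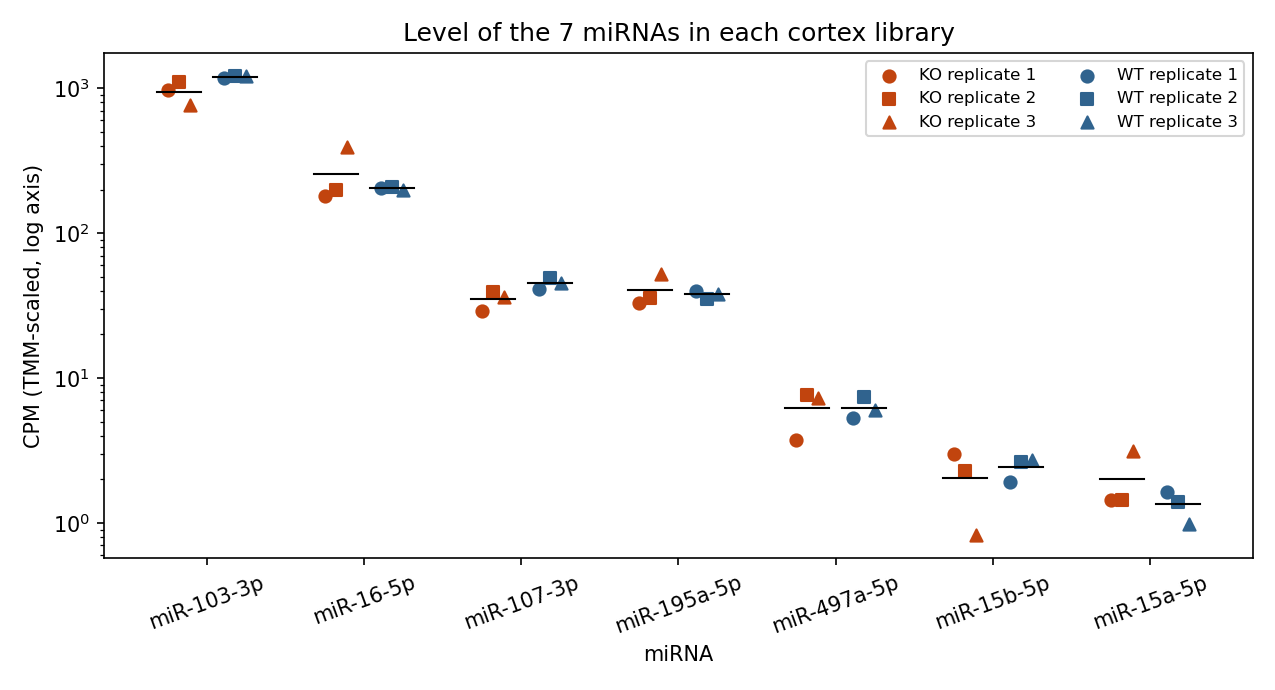
Level of each of the 7 miRNAs in CPM on a log axis, with a point for each KO library (left of each pair) and each WT library (right), shapes for replicates and a black line for the group mean. The levels run from about 1205 CPM for miR-103-3p in WT to 1.34 CPM for miR-15a-5p in WT, and the KO and WT points stay apart for miR-103-3p and miR-107-3p.

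The members covered a wide range of levels, and miR-103-3p and miR-16-5p together made up most of the reads. Summed over the 7, the level was 1216, 1384 and 1256 CPM in KO libraries, against 1481, 1520 and 1506 CPM in WT libraries. The mean was 1286 ± 87.5 CPM in KO libraries, against 1502 ± 19.9 CPM in WT libraries (SD, n = 3 each). Because the mature sequences are 21 to 23 bases long, the order of the mean levels was taken per base. On that scale miR-103-3p had 41 CPM per base in KO libraries, against 52.4 in WT libraries, and miR-16-5p had 11.7 in KO libraries, against 9.27 in WT libraries. Next came miR-195a-5p, with 1.93 CPM per base in KO libraries, against 1.8 in WT libraries, and miR-107-3p, with 1.52 in KO libraries, against 1.97 in WT libraries. Then followed miR-497a-5p with 0.283 in KO libraries, against 0.284 in WT libraries, miR-15b-5p with 0.0924 in KO libraries, against 0.11 in WT libraries, and miR-15a-5p with 0.0908 in KO libraries, against 0.061 in WT libraries. The order of miR-195a-5p and miR-107-3p was reversed between genotypes, and their values per base overlapped in both (in WT, 1.68 to 1.91 for miR-195a-5p and 1.8 to 2.14 for miR-107-3p). The overlap in WT came from the division by length. In CPM, where a read counts once whatever its length, the WT values were separate. They were 35.2 to 40.1 CPM for miR-195a-5p and 41.4 to 49.1 CPM for miR-107-3p. The values of miR-15b-5p and miR-15a-5p overlapped in KO and were separate in WT. All other neighbours in the order were separate in both genotypes. How efficiently each sequence is captured by ligation was not measured here.

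The miR-103/miR-107 branch had lower values in KO. Levels of miR-103-3p, the most abundant member, were 965.2, 1099 and 763.7 CPM in KO libraries, against 1185, 1216 and 1215 CPM in WT libraries. All 3 KO libraries lay below all 3 WT libraries, and KO replicate 3 was the lowest. The mean was 942.5 ± 169 CPM in KO libraries, against 1205 ± 17.9 CPM in WT libraries (SD, n = 3 each). The log2 fold change was -0.35 (SE 0.17, 95% interval -0.74 to 0.04, edgeR adjusted p = 0.749). Without KO replicate 3 it was -0.21 (adjusted p = 0.368), and without KO replicate 2 it was -0.53 (adjusted p = 0.498).

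The rarer miR-107-3p, which differs from miR-103-3p by a single base near its 3′ end, had 29.2, 39.3 and 36.1 CPM in KO libraries, against 41.4, 49.1 and 45.2 CPM in WT libraries. Again no KO library reached the lowest WT library, but here KO replicate 1 was the lowest. The mean was 34.9 ± 5.15 CPM in KO libraries, against 45.2 ± 3.88 CPM in WT libraries (SD, n = 3 each). Its log2 fold change was -0.38 (SE 0.19, 95% interval -0.80 to 0.05, edgeR adjusted p = 0.749), and -0.38 without KO replicate 3 (adjusted p = 0.246). Over libraries left out in turn it ranged from -0.51 to -0.25. Groups that do not overlap, with lower values in KO, were found for 57 of 541 tested miRNAs (10.5%), and for 2 of the 7 members. The reverse, with higher values in KO, was found for 28 tested miRNAs (5.18%) and 0 members. The reads of miR-107-3p per 100 reads of miR-103-3p were 3.03, 3.58 and 4.73 in KO libraries, against 3.49, 4.04 and 3.72 in WT libraries. In this ratio KO replicate 1 was the lowest library and KO replicate 3 the highest. The difference in log2 ratio was -0.0119 (p = 1 in an exact two-sided permutation test, and 1 after adjustment over 5 ratios). The smallest p that 3 against 3 libraries can give is 0.1.

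The miR-15/16 branch was split by KO replicate 3. For miR-16-5p, the levels were 180.9, 198.6 and 392.7 CPM in KO libraries, against 205.8, 208.4 and 197.7 CPM in WT libraries. KO replicate 3 was nearly 1 log2 unit above the WT mean (0.94), while KO replicates 1 and 2 were at -0.17 and -0.038. The mean was 257.4 ± 118 CPM in KO libraries, against 204 ± 5.56 CPM in WT libraries (SD, n = 3 each). The log2 fold change of 0.34 (SE 0.29, 95% interval -0.34 to 1.01, edgeR adjusted p = 0.791) became -0.087 without KO replicate 3 (adjusted p = 0.763) and 0.55 without KO replicate 1 (adjusted p = 0.42).

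The same library was highest for miR-15a-5p, the partner of miR-16 in Dleu2. Its counts were low, at 21, 17 and 38 reads in KO libraries, against 25, 19 and 15 reads in WT libraries, or 1.43, 1.43 and 3.13 CPM in KO libraries, against 1.64, 1.4 and 0.987 CPM in WT libraries. KO replicates 1 and 2 lay within the WT range, and KO replicate 3 above it. This gave a log2 fold change of 0.57 (SE 0.42, edgeR adjusted p = 0.791), and 0.11 without KO replicate 3 (adjusted p = 0.903). Without KO replicate 1 it was 0.78 (adjusted p = 0.443). Per 100 reads of miR-16-5p there were 0.792, 0.72 and 0.798 reads of miR-15a-5p in KO libraries, against 0.796, 0.671 and 0.499 in WT libraries. KO replicate 3 therefore did not stand apart in this ratio, and the log2 ratio differed by 0.26 (exact permutation p = 0.3, adjusted p = 0.75). This difference depended on the WT libraries, and was 0.0731 without WT replicate 3 and 0.41 without WT replicate 1.

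In contrast, miR-15b-5p, the partner of miR-16 in Smc4, was lowest in KO replicate 3. Its counts were 44, 27 and 10 reads in KO libraries, against 29, 36 and 41 reads in WT libraries, or 3, 2.27 and 0.824 CPM in KO libraries, against 1.9, 2.65 and 2.7 CPM in WT libraries. KO replicate 1 was the highest library and KO replicate 3 the lowest, on either side of the WT values. Its fold change on the log2 scale was -0.23 (SE 0.44, edgeR adjusted p = 0.882), and 0.15 without KO replicate 3 (adjusted p = 0.83). Without KO replicate 1 it was -0.63 (adjusted p = 0.559). Reads of miR-15b-5p per 100 reads of miR-16-5p were 1.66, 1.14 and 0.21 in KO libraries, against 0.924, 1.27 and 1.36 in WT libraries. The log2 ratio differed by -0.67 (exact permutation p = 0.8, adjusted p = 1), by 0.24 without KO replicate 3 and by -1.26 without KO replicate 1.

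**Figure D2:**
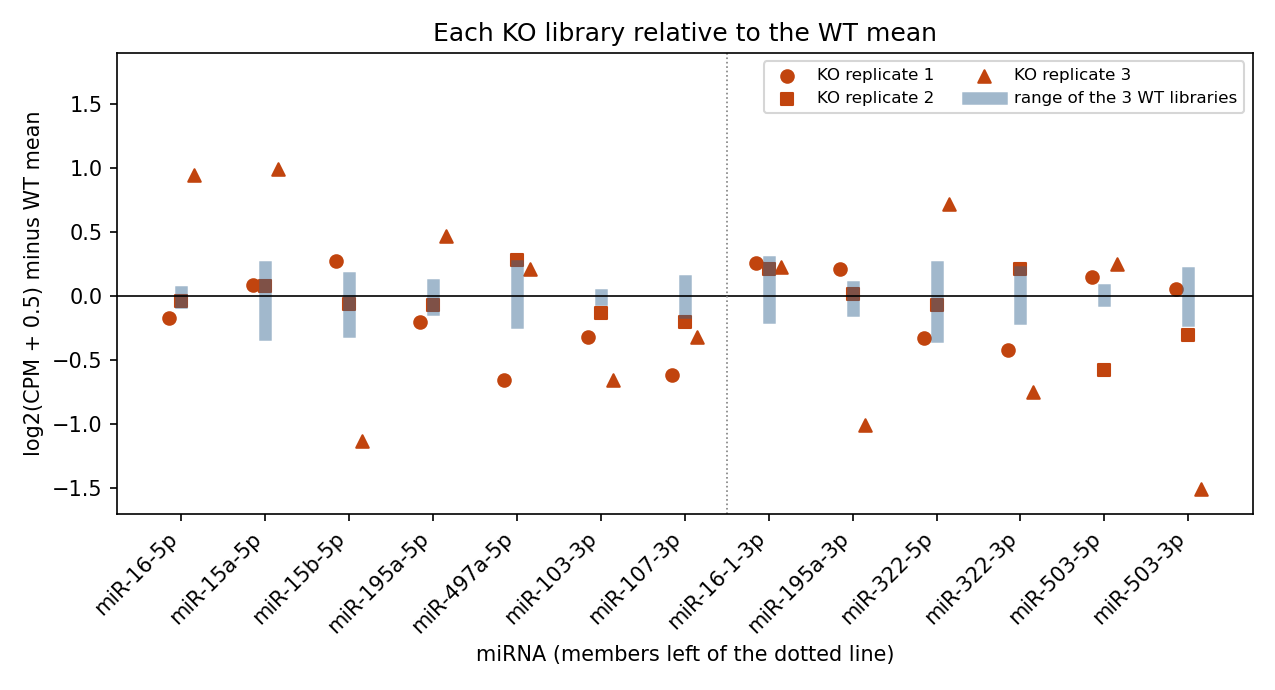
Distance of each KO library (shapes) from the WT mean, as log2(CPM + 0.5), for the 7 members and, right of the dotted line, for passenger arms and X-linked relatives, with blue bars for the range of the 3 WT libraries. KO replicate 3 lies at 0.94 for miR-16-5p, 0.996 for miR-15a-5p, -1.13 for miR-15b-5p and -1.01 for miR-195a-3p, outside the WT range in each.

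The miR-195/miR-497 cluster summed to 46.7 ± 11.9 CPM in KO libraries, against 44 ± 1.44 CPM in WT libraries (SD, n = 3 each), a difference within the spread of the KO libraries. Levels of miR-195a-5p were 32.8, 35.9 and 52.6 CPM in KO libraries, against 40.1, 35.2 and 38.1 CPM in WT libraries. KO replicate 3 was the highest library and KO replicate 1 the lowest. The log2 fold change was 0.10 (SE 0.22, 95% interval -0.40 to 0.59, edgeR adjusted p = 0.89), -0.12 without KO replicate 3 (adjusted p = 0.734) and 0.24 without KO replicate 1 (adjusted p = 0.604).

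Its neighbour miR-497a-5p had 3.75, 7.65 and 7.25 CPM in KO libraries, against 5.31, 7.36 and 6.05 CPM in WT libraries. Here KO replicate 1 was the lowest and KO replicate 2 the highest library, and KO replicate 3 lay within the WT range. The log2 fold change was -0.0083 (SE 0.31, 95% interval -0.71 to 0.70, edgeR adjusted p = 0.994), and its sign changed with the scaling. Without KO replicate 1 it was 0.27 (adjusted p = 0.6), and without KO replicate 2 it was -0.21. Per 100 reads of miR-195a-5p there were 11.4, 21.3 and 13.8 reads of miR-497a-5p in KO libraries, against 13.2, 20.9 and 15.9 in WT libraries. The groups overlapped, and the log2 ratio differed by -0.13 (exact permutation p = 0.8, adjusted p = 1).

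**Figure D3:**
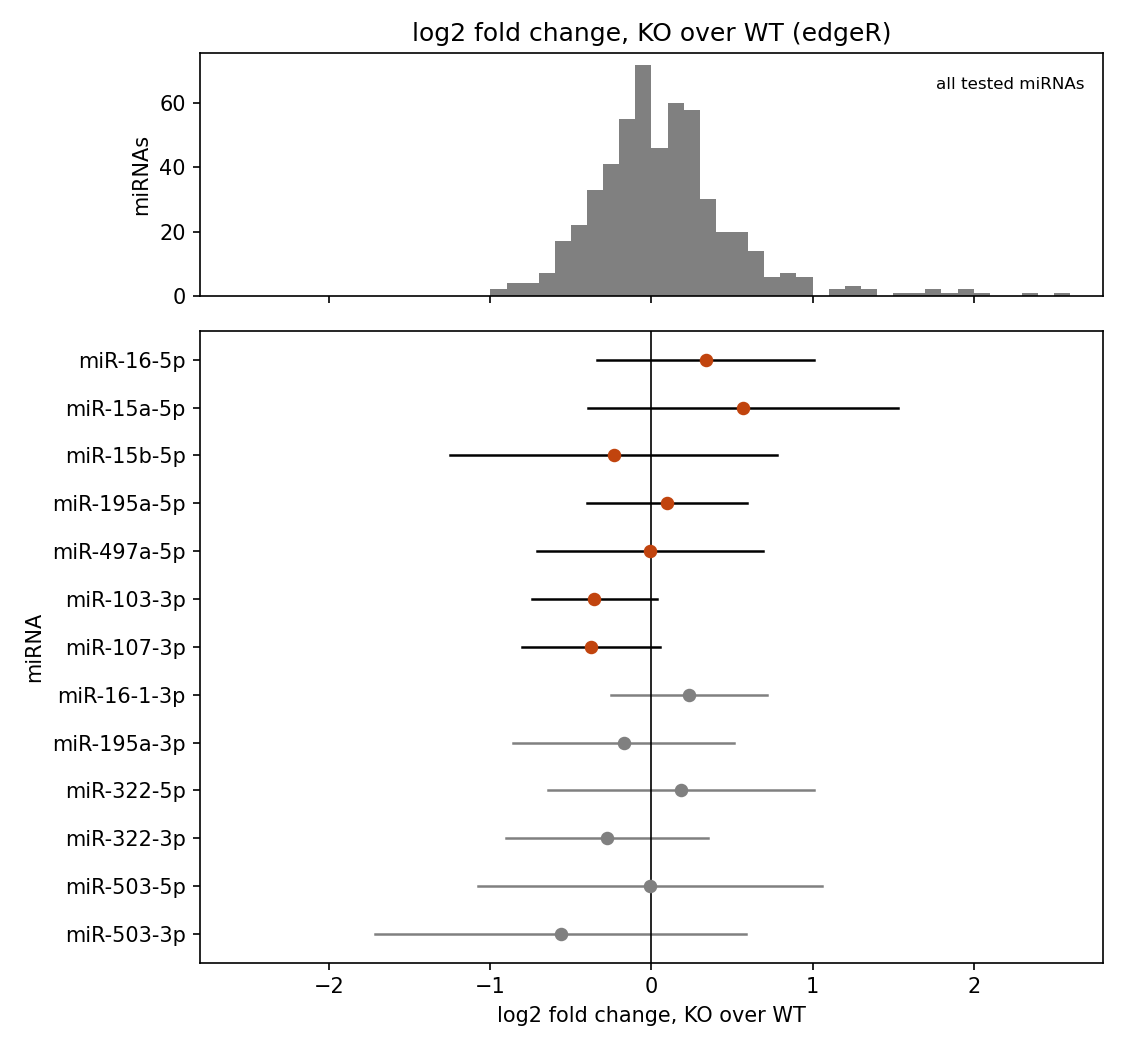
Log2 fold change, KO over WT, from edgeR, as a histogram over all 541 tested miRNAs (top) and with 95% intervals for the members in orange and for passenger arms and X-linked relatives in grey (bottom). All 13 intervals shown include 0, and those of miR-103-3p and miR-107-3p reach 0.04 and 0.05 at their upper end.

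The ratio of miR-15/16 to miR-103/miR-107, with miR-195a-5p and miR-497a-5p left out, was higher in KO in every library. Most of the difference lay in KO replicate 3. Reads of miR-15a-5p, miR-15b-5p and miR-16-5p summed to 18.6, 17.8 and 49.6 per 100 reads of miR-103-3p and miR-107-3p in KO libraries, against 17.1, 16.8 and 16 in WT libraries. The lowest KO library lay just above the highest WT library. The difference in log2 ratio was 0.61 (exact permutation p = 0.1, the smallest possible, adjusted p = 0.5) and was 0.13 without KO replicate 3. Levels of miR-15a-5p, miR-15b-5p and miR-16-5p summed to 185.4, 202.3 and 396.7 CPM in KO libraries, against 209.3, 212.4 and 201.4 CPM in WT libraries. Those of the miR-103/miR-107 branch summed to 994.4, 1138 and 799.8 CPM in KO libraries, against 1226, 1265 and 1260 CPM in WT libraries.

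Passenger arms, the hairpin strands that are less often loaded into Argonaute, were found for 7 of the 9 names listed, and 2 passed the count filter. At the Dleu2 locus miR-16-1-3p had 13, 12.6 and 12.7 CPM in KO libraries, against 9.96, 13.1 and 9.6 CPM in WT libraries, and the groups overlapped (log2 fold change 0.23, SE 0.21, edgeR adjusted p = 0.791). KO replicate 3 was thus level with the other KO libraries in this arm, whereas miR-16-5p had 392.7 CPM there and at most 198.6 CPM in the other KO libraries. The corresponding arm of the Smc4 copy, miR-16-2-3p, had 2 reads in KO, both in KO replicate 2, and 0 reads in WT, where miR-16-1-3p had 495 reads in KO and 476 reads in WT. A count of 0 allows up to 3 reads in the summed WT counts of 43785352. The miR-15b-3p arm of Smc4 had 4 to 9 reads per library in KO, against 6 to 10 in WT libraries. The 5p share of miR-15b reads was 84.6% (exact binomial 95% interval 71.9 to 93.1), 87.1% (70.2 to 96.4) and 52.6% (28.9 to 75.6) in KO libraries, against 78.4% (61.8 to 90.2), 85.7% (71.5 to 94.6) and 80.4% (66.9 to 90.2) in WT libraries. KO replicate 3 had the lowest share, from 10 reads of the 5p arm and 9 of the 3p arm, and its interval overlapped those of the other libraries. For miR-15a-3p, miR-103-2-5p and miR-107-5p the counts were 0 to 2 reads in every library.

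The Mir195a hairpin gave nearly equal reads from its arms in most libraries. Its sequence is shown with both mature arms in capitals, the 5p arm first (RefSeq, GRCm38.p6, chr11:70235042-70235135, plus strand).

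Mir195a: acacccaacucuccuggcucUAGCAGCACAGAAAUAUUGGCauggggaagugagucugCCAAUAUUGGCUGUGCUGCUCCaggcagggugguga

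Levels of miR-195a-3p were 40.5, 35.4 and 17.1 CPM in KO libraries, against 35.9, 32.5 and 36.7 CPM in WT libraries. KO replicate 1 was the highest library and KO replicate 3 the lowest, the reverse of the 5p arm. For this arm the log2 fold change was -0.17 (SE 0.30, edgeR adjusted p = 0.882). The 5p share of reads from both arms was 44.7% (exact binomial 95% interval 41.7 to 47.8) in KO replicate 1, 50.4% (46.9 to 53.8) in KO replicate 2 and 75.4% (72.4 to 78.3) in KO replicate 3. In WT it was 52.8% (49.9 to 55.7), 52% (48.7 to 55.3) and 50.9% (48 to 53.9). The interval of KO replicate 3 lay above those of the other 5 libraries, and that of KO replicate 1 lay below the intervals of all 3 WT libraries. The intervals cover counting error alone, since reads are not unique molecules. The mean share was 56.8% ± 16.3 in KO libraries, against 51.9% ± 0.944 in WT libraries (SD, n = 3 each), and the groups overlapped. On the opposite strand of Mir497, miR-497b had 1.3, 1.35 and 1.07 CPM in KO libraries, against 1.38, 0.957 and 0.592 CPM in WT libraries (log2 fold change 0.34, SE 0.40, edgeR adjusted p = 0.85). Whether strand was used in counting is not stated, and its reads may be shared with the Mir497 hairpin. Its bases (chr11:70234763-70234786) overlap those of miR-497a-3p (chr11:70234770-70234790), which had no row in the count table. Elsewhere, miR-24-3p and the antisense miR-3074-5p had nearly equal means, 5303 and 5298 CPM in KO libraries, against 4746 and 4741 CPM in WT libraries. The miR-497b values may thus not be those of a distinct miRNA.

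The X-linked miR-322 and miR-503 are further relatives, and miR-195b had no row in the count table. In the sequences below, again from RefSeq with the seed in capitals, miR-322-5p has the seed of the miR-15/16 branch, and miR-503-5p matches miR-16-5p over its first 7 bases. Their hairpins lie 200 bases apart (chrX:53054255-53054349 and chrX:53053984-53054054, minus strand).

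miR-322-5p: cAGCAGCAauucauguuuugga
miR-503-5p: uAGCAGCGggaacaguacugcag

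Of the related names listed, 5 of 6 were in the table and tested, and 0 passed the edgeR test (2 log2 fold changes above 0 and 3 below it, median -0.0101). Levels of miR-322-5p were 2.46, 3.03 and 5.61 CPM in KO libraries, against 2.49, 3.83 and 3.42 CPM in WT libraries. KO replicate 3 was the highest library. The opposite arm, miR-322-3p, had 18.5, 28.9 and 14.6 CPM in KO libraries, against 22.1, 24.5 and 28.4 CPM in WT libraries, with KO replicate 3 the lowest. The 5p share of miR-322 reads was 11.7% (exact binomial 95% interval 8.35 to 15.9), 9.47% (6.72 to 12.9) and 27.8% (22.2 to 33.8) in KO and 10.1% (7.27 to 13.6), 13.5% (10.3 to 17.3) and 10.7% (8.13 to 13.8) in WT. The share was highest in KO replicate 3, as for miR-195a and unlike miR-15b. On the log2 scale the fold change was 0.18 (SE 0.36) for miR-322-5p and -0.27 (SE 0.27) for miR-322-3p. For miR-503-5p, with 4 to 13 reads per library in KO, against 10 to 12 in WT libraries, the log2 fold change was -0.0101 (SE 0.47). For miR-503-3p it was -0.56 (SE 0.50), with 32, 19 and 5 reads in KO libraries, against 27, 33 and 32 reads in WT libraries. The 5p share of miR-503 reads was 28.9%, 17.4% and 70.6% in KO libraries, against 28.9%, 23.3% and 27.3% in WT libraries, again highest in KO replicate 3. There it came from 12 reads of the 5p arm and 5 of the 3p arm (exact binomial 95% interval 44.0 to 89.7). That interval overlapped those of KO replicate 1 (16.4 to 44.3) and WT replicate 1 (15.4 to 45.9), and lay above those of the remaining libraries.

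**Figure D4:**
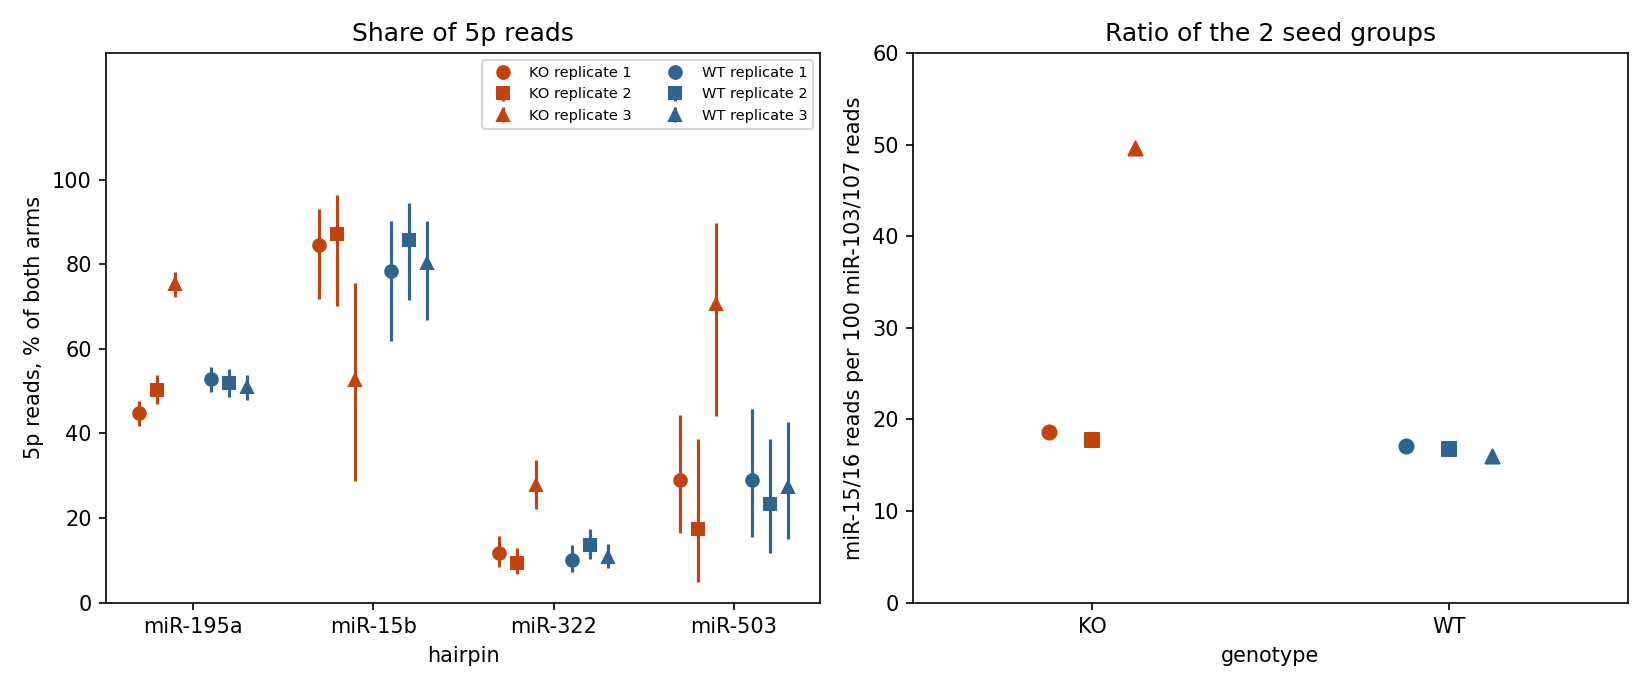
Left, reads from the 5p arm as a percentage of reads from both arms of the miR-195a, miR-15b, miR-322 and miR-503 hairpins, per library, with exact binomial 95% intervals. Right, reads of miR-15a-5p, miR-15b-5p and miR-16-5p per 100 reads of miR-103-3p and miR-107-3p, per library. KO replicate 3 is highest for miR-195a (75.4%), miR-322 (27.8%), miR-503 (70.6%) and the ratio at right (49.6), and lowest for miR-15b (52.6%).

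Other miRNAs followed the branches across the 6 libraries, as measured by Pearson's r of log2 levels, given as a description over libraries that share the spread of KO replicate 3. Nearest to the summed miR-15/16 level were miR-29b-3p (r = 0.997), miR-29c-3p (r = 0.995) and miR-30b-5p (r = 0.988). All 3 were highest in KO replicate 3, with miR-29b-3p at 77.3, 92.8 and 249.6 CPM in KO libraries, against 102.2, 101.4 and 92.9 CPM in WT libraries. Nearest to miR-195/miR-497 were miR-133a-3p (r = 0.997), a muscle miRNA with at most 5.44 CPM, and miR-154-5p and miR-376c-3p of the imprinted Dlk1-Dio3 cluster (both r = 0.964). Nearest to miR-103/miR-107 were miR-26a-5p (r = 0.997), miR-99a-5p (r = 0.97) and miR-5129-3p (r = 0.97). The abundant miR-26a-5p had 23890.8, 29075.3 and 19327.9 CPM in KO libraries, against 30999.6, 32110.1 and 32701.6 CPM in WT libraries.

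Markers of other cells differed between the KO libraries as well, and 0 of them passed the edgeR test in any list. The erythroid list (miR-451a, miR-144-3p, miR-144-5p and miR-486a-5p, all 4 detected) summed to 99.4, 80.3 and 120.6 CPM in KO libraries, against 75.4, 83.4 and 76.6 CPM in WT libraries. Within it, miR-451a was at 80.1 CPM in KO replicate 3 and at 28.8 to 43.3 CPM in the other libraries, while miR-486a-5p was lowest in KO replicate 3, at 38.4 CPM. The choroid plexus and cilia list, with 6 of 6 detected, summed to 1010, 1024 and 2101 CPM in KO libraries, against 964.2, 997.2 and 1034 CPM in WT libraries. Most of this sum was miR-204-5p, at 1621 CPM in KO replicate 3. In that library miR-449a-5p, at 0.659 CPM, lay within its WT values (0.442 to 1.05 CPM), while every other member of the list was at its highest. The epithelium and olfactory list, with 5 of 5 detected, summed to 15.7, 904.3 and 970.1 CPM in KO libraries, against 154.2, 83.9 and 290 CPM in WT libraries. Of the microglia and leukocyte list 5 of 5 were detected, at 107.7, 87.5 and 132.7 CPM in KO libraries, against 102.6, 92.2 and 88.9 CPM in WT libraries. Most of this sum was miR-150-5p, at 118.2 CPM in KO replicate 3, while miR-142a-5p was lowest there, at 8 CPM, against 10.4 to 16.1 CPM in the other libraries. The oligodendrocyte list, with 3 of 3 detected, was lowest in KO replicate 3, at 792.3, 704.7 and 558.2 CPM in KO libraries, against 792.3, 769.3 and 880 CPM in WT libraries. Most of that sum was miR-219a-2-3p, while miR-338-3p was highest in KO replicate 3, at 32.7 CPM, against 14.4 to 21.4 CPM in the other libraries. Endothelial and mural miRNAs, 4 of 4 detected, ranged from 38482.9 to 44553.9 CPM in KO libraries and from 35222.9 to 42566.1 CPM in WT libraries. Liver and muscle miRNAs, 4 of 4 detected, ranged from 213.4 to 294.1 CPM in KO libraries and from 225.3 to 243.3 CPM in WT libraries. The part of these cell types in the levels of miR-16-5p and its relatives was not tested.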

How the data were processed

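Small RNA from 6 mouse cortex libraries, 3 KO and 3 WT by genotype label, was read from a single end after adaptor ligation, PCR and gel selection, per the labels' protocols. The authors deposited whole-number read counts per mature miRNA without normalization and, per the file headers, TPM values that sum to the same total in each library. The submitters' processing notes name Bowtie, DESeq2 and mm10. How reads were trimmed, the mismatches allowed, strand and the handling of multiple matches were not stated there. Each column was matched to the sample title with the same number, and 0 columns belonged to no sample. Replicate numbers follow accession order and only name libraries.

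The test used edgeR 4.0.16 under R 4.3.3: filterByExpr (minimum count 10, leaving 541 of 1182 features, all 7 members among them), TMM scaling, the robust quasi-likelihood test and Benjamini-Hochberg adjustment over all 541, at a threshold of 0.05. Standard errors and 95% intervals come from the same fit. Ratios between members were tested by exact two-sided permutation over libraries and adjusted over 5 ratios. Alternatives were DESeq2 1.42.0, limma 3.58.1 (voom, and log2 of TPM + 1 for a mean TPM of at least 1), other scalings, no filter, and each library left out. The members and lists were chosen with earlier results of these data known. The text names the members, their passenger arms, features with GCAGC in the first 8 bases or of the miR-322, miR-503, miR-195b and miR-497b names, and the 3 miRNAs nearest to each branch by Pearson's r. Shares of hairpin arms, and pairs of features with equal or nearly equal levels, were added after the data were seen.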

Additional observations from a re-analysis of the deposited data

How the results depend on the processing

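Calls over all miRNAs numbered 0 under each of 7 other scalings, filters and tests, and 0 to 18 with a library left out, the 18 without KO replicate 3. No member passed the threshold under any alternative run. The signs of miR-103-3p, miR-107-3p and miR-15a-5p held throughout. For miR-497a-5p the log2 fold change turned to 0.0308 with DESeq2 size factors, 0.0319 with TMM without the 5 most abundant, 0.014 without the count filter and 0.0184 with DESeq2, all close to 0. With a library left out, log2 fold changes ranged from -0.63 to 0.15 for miR-15b-5p, -0.087 to 0.55 for miR-16-5p, -0.12 to 0.24 for miR-195a-5p and -0.21 to 0.27 for miR-497a-5p. Log2 ratio differences ranged from -1.26 to 0.24 (miR-15b-5p to miR-16-5p), -0.38 to 0.0653 (miR-497a-5p to miR-195a-5p) and -0.19 to 0.14 (miR-107-3p to miR-103-3p). The cause was not tested. No paired analysis was possible because the labels give the genotypes no shared replicate numbers. Low counts limit miR-15a-5p and miR-15b-5p, with 135 and 187 reads over all 6 libraries.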

Other observations

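Beyond the family, 3 further miRNAs of the table hold GCAGC within their first 8 bases. Of these, miR-1968-5p was tested by edgeR, with 1.71, 1.43 and 1.24 CPM in KO libraries, against 1.9, 1.62 and 2.1 CPM in WT libraries, and a log2 fold change of -0.36 (SE 0.31, adjusted p = 0.791). The others, miR-693-3p with 4 reads and miR-7044-3p with 26 reads over all 6 libraries, did not reach the count filter.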
